A study of Mus musculus with 16 samples.

Results

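The genes described here are 10 genes of the smooth muscle contractile apparatus, picked by symbol from the 46348 genes of a count table of MEC1, an established mouse epicardial cell line. They are Acta2, Tagln, Cnn1, Myh11, Myl9, Tpm1, Tpm2, Cald1, Smtn and Actg2, and every one of them has a row in the table. Poly(A) RNA was sequenced from 16 libraries in 8 groups of 2. Cells received PRMT1 siRNA, p53 siRNA, both siRNAs together or control siRNA, and each of these 4 treatments was run with TGF-beta and without it. Apart from the siRNA and the TGF-beta, the groups share the same cell line, and the TGF-beta dose and time and the siRNA amounts are not given in the sources used here. The design calls the libraries of a group biological replicates without saying whether they came from separate cultures, so the p-values measure the spread between these libraries. The study's title places PRMT1 and p53, together with Mdm4, in a pathway of epicardial invasion and cell fate, and the comparisons below ask what TGF-beta and each siRNA did to the contractile genes.

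The epicardium is the mesothelial layer around the heart, and some of its cells lose their epithelial form, move into the heart wall and become smooth muscle cells and fibroblasts. TGF-beta is a known inducer of that change in cultured epicardial cells. The contractile apparatus works through actin filaments (Acta2, Actg2) that slide on smooth muscle myosin (Myh11, with the regulatory light chain Myl9), while tropomyosins (Tpm1, Tpm2), caldesmon (Cald1), calponin (Cnn1), transgelin (Tagln) and smoothelin (Smtn) bind the filament. Many of these genes are switched on by serum response factor, which binds a short DNA element called the CArG box and is helped by myocardin or the myocardin-related factors. PRMT1 is an enzyme that methylates arginines in other proteins, and p53 is a transcription factor of the stress response.

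The promoters below show which of the members with a matched promoter window carry such a box close to the start site. Each line holds the 250 bases before a RefSeq transcription start (build GRCm38.p6), 5′ to 3′ on the gene's own strand. Capitals mark each CArG box with at most 1 mismatch in its 6 A or T positions. Acta2 and Myl9 are shown because they carry one, and Cnn1 and Smtn because Cnn1 had the highest fitted TGF-beta response in control cells and Smtn fell there, and neither window holds a box.
Acta2, chr19:34255374-34255623, minus strand: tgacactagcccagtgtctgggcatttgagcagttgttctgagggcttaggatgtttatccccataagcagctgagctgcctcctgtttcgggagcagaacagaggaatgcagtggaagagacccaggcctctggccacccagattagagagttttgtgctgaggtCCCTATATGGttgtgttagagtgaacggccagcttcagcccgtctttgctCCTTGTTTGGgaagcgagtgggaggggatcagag
Myl9, chr2:156775214-156775463, plus strand: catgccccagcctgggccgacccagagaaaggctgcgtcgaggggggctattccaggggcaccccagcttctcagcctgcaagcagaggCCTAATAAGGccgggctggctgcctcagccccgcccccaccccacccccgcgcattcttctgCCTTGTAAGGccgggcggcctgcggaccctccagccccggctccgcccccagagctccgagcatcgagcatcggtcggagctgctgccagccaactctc
Cnn1, chr9:22099003-22099252, plus strand: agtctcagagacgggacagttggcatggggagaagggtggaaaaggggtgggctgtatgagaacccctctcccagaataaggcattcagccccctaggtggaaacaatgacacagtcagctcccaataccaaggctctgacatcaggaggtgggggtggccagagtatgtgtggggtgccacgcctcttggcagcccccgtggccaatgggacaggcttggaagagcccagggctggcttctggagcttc
Smtn, chr11:3539293-3539542, minus strand: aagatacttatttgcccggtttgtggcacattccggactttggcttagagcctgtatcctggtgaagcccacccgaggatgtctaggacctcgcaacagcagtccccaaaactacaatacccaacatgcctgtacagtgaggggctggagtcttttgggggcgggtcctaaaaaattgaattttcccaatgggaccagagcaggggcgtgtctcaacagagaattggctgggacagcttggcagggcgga

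In Acta2 the boxes begin at -84 and -34 from the start site, each with 1 mismatch. In Myl9 they begin at -161, an exact match, and at -99. RefSeq windows were matched for 7 members in 8 windows, Cald1 having 2. Tagln, Myh11 and Actg2 had no matched window, so their promoters were not searched. Of all 32851 windows of this length, 482 held an exact box (1.47%) and 2823 a box with at most 1 mismatch (8.59%). The CArG box reads as the same pattern on both strands. CAGAC, the SMAD-binding element, was searched on both strands and lies in the Acta2 window and in a Cald1 window, against 13861 of all windows (42.2%). A match is a run of letters and not a shown binding site.

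Library totals ran from 19617874 to 30759317 counts, and 15494 genes passed the filter on low counts and were tested, 9 of the members among them. Levels are CPM (counts scaled to a common library total) after TMM scaling, which corrects for library size and composition. The siRNA targets were lower at the RNA level: Prmt1 averaged 75.8 ± 1.85 CPM with PRMT1 siRNA and 158 ± 21.2 CPM with control siRNA, and Trp53 averaged 54.8 ± 0.822 CPM with p53 siRNA and 136 ± 11.5 CPM with control siRNA (SD, n = 2 libraries). With both siRNAs Trp53 stayed at 89.4 ± 1.87 CPM. Replicate 2 of p53 siRNA with TGF-beta stood apart. The log2 differences between it and replicate 1 had a root mean square of 0.805, where the pairs of the remaining 7 groups gave 0.341 to 0.426. Relative to its short transcripts, its long ones were shifted against replicate 1 by -1.01 on the log2 scale, where those pairs gave -0.05 to 0.29. Because all groups share 1 estimate of the spread, a fit of the 15 other libraries, with 16103 genes tested, is given beside that of all 16 for members whose call changed and for the TGF-beta response with p53 siRNA.

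With TGF-beta the contractile genes took up a larger part of the RNA. The 10 genes together held 0.654% to 0.869% of all counts in the 8 TGF-beta libraries, against 0.253% to 0.365% in the 8 untreated ones. For Acta2, Tagln, Cnn1, Myl9, Tpm1, Tpm2 and Actg2 the lowest of the 8 TGF-beta libraries was above the highest of the 8 untreated libraries, whatever the siRNA. The ranges overlapped for Cald1, Smtn and Myh11. How many of all genes kept treated and untreated libraries apart was not counted. In bulk RNA, more cells that make these transcripts and more transcript per cell cannot be told apart.

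**Figure D1:**
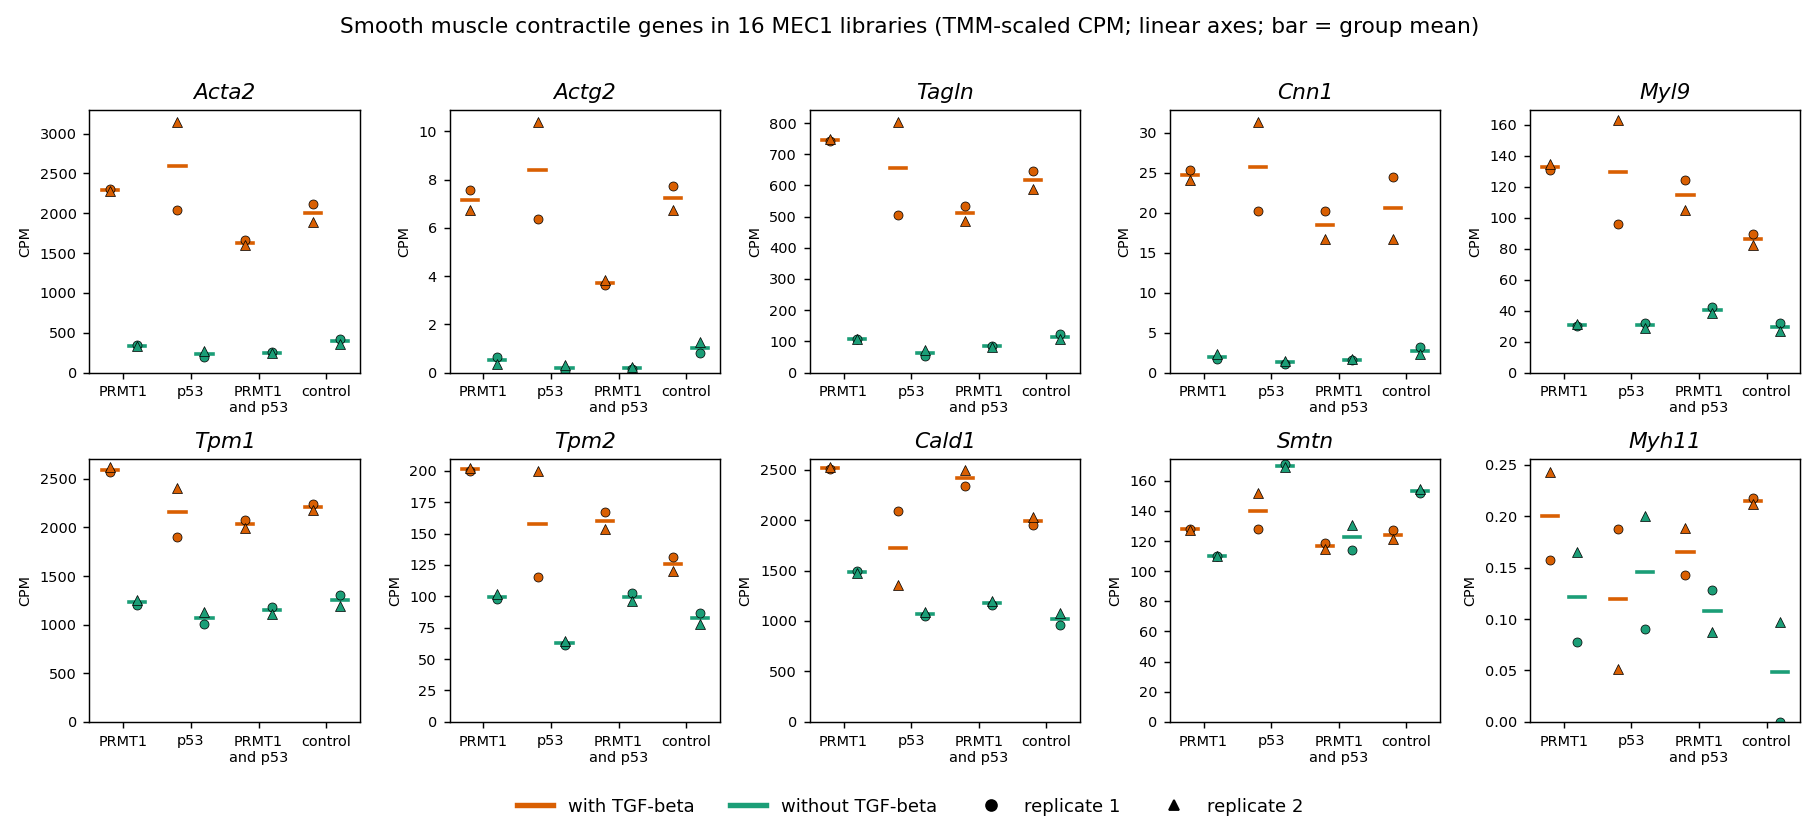
TMM-scaled CPM of the 10 contractile genes in every library (linear axes starting at 0), by siRNA treatment, with TGF-beta in orange and without it in green; circles and triangles are replicates 1 and 2 and bars are group means. Orange points lie above all green ones for 7 genes, and replicate 2 of p53 siRNA with TGF-beta lies apart from its partner in most panels.

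The response to TGF-beta was tested within each siRNA treatment (edgeR quasi-likelihood F test, adjusted p over all genes tested). With PRMT1 siRNA 8 of the 9 members tested rose and 0 fell. With p53 siRNA 8 rose and 1 fell. With both siRNAs 8 rose and 0 fell, and with control siRNA 8 rose and 1 fell. Over all genes tested, 32.5% passed in either direction with PRMT1 siRNA, 45.3% with p53 siRNA, 31.3% with both siRNAs and 38.4% with control siRNA, and the shares that rose were 16.3%, 23.3%, 15% and 17.8% in the same order. The shares that fell were 16.2%, 22%, 16.3% and 20.6%. The members' median log2 change was 2.11 with PRMT1 siRNA, 2.08 with p53 siRNA, 1.5 with both siRNAs and 1.54 with control siRNA, against medians of -0.01, 0.02, -0.02 and -0.01 over all genes. The member that did not rise was Smtn in each case. With 15 libraries 9 of the 9 rose with PRMT1 siRNA and the other counts were the same, the members' median with p53 siRNA was 1.65, and the shares of all genes called either way were 50.6% with PRMT1 siRNA, 46.1% with p53 siRNA, 47.4% with both siRNAs and 52.2% with control siRNA.

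The actins come first. Acta2 (chromosome 19, 34241090 to 34255337, minus strand, mm10) encodes alpha smooth muscle actin, the usual marker of smooth muscle cells and myofibroblasts. Its level was 2303 and 2283 CPM in replicates 1 and 2 of PRMT1 siRNA with TGF-beta, against 341 and 331 CPM with PRMT1 siRNA alone. With p53 siRNA Acta2 stood at 2036 and 3149 CPM with TGF-beta, against 195 and 272 CPM without it. With both siRNAs it was 1666 and 1595 CPM with TGF-beta, against 255 and 247 CPM without it. With control siRNA Acta2 was 2111 and 1890.1 CPM with TGF-beta, against 426 and 356 CPM without it. No TGF-beta library came near an untreated one, and within the treated groups the cells with both siRNAs were lowest. The log2 change of Acta2 was 2.77 ± 0.20 with PRMT1 siRNA, 3.47 ± 0.21 with p53 siRNA, 2.70 ± 0.20 with both siRNAs and 2.36 ± 0.20 with control siRNA (± SE, adjusted p = 8.09e-07, 9.66e-08, 9.85e-07 and 2.13e-06). With 15 libraries the Acta2 change under p53 siRNA was 3.12 ± 0.15.

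Actg2 (chromosome 6, 83512905 to 83536266, minus strand), the gamma actin of enteric smooth muscle, gave the largest fitted changes of the members in all treatments but control siRNA, where that of Cnn1 was larger, and it did so at far lower counts. It had 192 and 194 counts with PRMT1 siRNA and TGF-beta, against 17 and 9 with PRMT1 siRNA alone. It had 136 and 201 counts with p53 siRNA and TGF-beta, against 1 and 8 with p53 siRNA alone. With both siRNAs Actg2 had 101 and 122 counts with TGF-beta, against 4 and 5 without it. With control siRNA it had 142 and 159 counts with TGF-beta, against 18 and 26 without it. The treated and untreated libraries did not overlap, and every untreated library held few reads of the gene, so the size of the change is imprecise. The log2 change of Actg2 was 3.77 ± 0.38 with PRMT1 siRNA, 5.42 ± 0.46 with p53 siRNA (5.02 ± 0.41 with 15 libraries), 4.43 ± 0.48 with both siRNAs and 2.82 ± 0.36 with control siRNA.

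The proteins that sit on the actin filament of smooth muscle followed. Tagln (chromosome 9, 45929628 to 45936059, minus strand) encodes transgelin, an actin-bundling protein and an early marker of the lineage. Over the 8 TGF-beta libraries Tagln ran from 487 to 805 CPM with a median of 619, against 53.7 to 122 CPM with a median of 96.4 in the untreated libraries. The log2 change of Tagln was 2.81 ± 0.20 with PRMT1 siRNA, 3.37 ± 0.20 with p53 siRNA (2.99 ± 0.13 with 15 libraries), 2.60 ± 0.20 with both siRNAs and 2.43 ± 0.20 with control siRNA. Cnn1 (chromosome 9, 22099281 to 22109631, plus strand) encodes calponin, which restrains the myosin ATPase and marks differentiated smooth muscle. Its TGF-beta libraries ran from 16.7 to 31.4 CPM with a median of 22.2, against 1.04 to 3.14 CPM with a median of 1.65 in untreated ones. Cnn1 was thus a minor transcript with a steep response, with log2 changes of 3.66 ± 0.28 with PRMT1 siRNA, 4.33 ± 0.30 with p53 siRNA (3.98 ± 0.26 with 15 libraries), 3.51 ± 0.28 with both siRNAs and 2.91 ± 0.27 with control siRNA.

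Myl9 (chromosome 2, 156775420 to 156781659, plus strand) encodes the regulatory light chain whose phosphorylation starts contraction. It ran from 82.5 to 163 CPM in the 8 TGF-beta libraries, against 27.1 to 42.5 CPM in the untreated ones. Its log2 changes were 2.11 ± 0.20 with PRMT1 siRNA, 2.08 ± 0.20 with p53 siRNA (1.65 ± 0.11 with 15 libraries), 1.5 ± 0.19 with both siRNAs and 1.54 ± 0.20 with control siRNA. Myh11 (chromosome 16, 14194527 to 14291409, minus strand), the smooth muscle myosin heavy chain and the marker held to be most specific for mature smooth muscle, was barely detected. Its libraries held 1 to 7 counts with TGF-beta, against 0 to 5 without it, which is 0.0516 to 0.243 CPM against 0 to 0.2 CPM. Myh11 did not pass the filter on low counts, the treated and untreated libraries overlapped, and a difference was not detectable at this depth.

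The tropomyosins and caldesmon, which are also made outside smooth muscle, had smaller log2 changes than the 5 genes above that rose, and Tpm1 and Cald1 were already abundant in untreated cells. Tpm1 (chromosome 9, 67022590 to 67049407, minus strand) ran from 1903 to 2622 CPM in the TGF-beta libraries, against 1009 to 1306.5 CPM in untreated ones. Its log2 changes were 1.08 ± 0.11 with PRMT1 siRNA, 1.01 ± 0.11 with p53 siRNA (0.83 ± 0.09 with 15 libraries), 0.83 ± 0.11 with both siRNAs and 0.82 ± 0.11 with control siRNA. Tpm2 (chromosome 4, 43514711 to 43523766, minus strand) ran from 115 to 202 CPM with TGF-beta, against 61.3 to 103 CPM without it. The Tpm2 changes were 1.01 ± 0.18 with PRMT1 siRNA (adjusted p = 0.00143), 1.32 ± 0.19 with p53 siRNA (adjusted p = 0.00013), 0.69 ± 0.18 with both siRNAs (adjusted p = 0.0137) and 0.61 ± 0.19 with control siRNA (adjusted p = 0.0216). With 15 libraries the Tpm2 change under p53 siRNA was 0.87 ± 0.08. The Tpm2 call with control siRNA was lost without any 1 of its 4 libraries (adjusted p = 0.0558 to 0.144), and with both siRNAs it was lost without 3 of the 4 (0.0588 to 0.0868).

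Cald1 (chromosome 6, 34598500 to 34775474, plus strand) encodes caldesmon, which blocks myosin binding to actin until calcium rises. With PRMT1 siRNA Cald1 was 2504 and 2525 CPM with TGF-beta, against 1495 and 1477 CPM without it. With p53 siRNA it was 2087 and 1357 CPM with TGF-beta, against 1048 and 1084 CPM without it. Replicate 2 of p53 siRNA with TGF-beta is the single treated library that fell inside the untreated range for Cald1. The log2 changes of Cald1 were 0.76 ± 0.15 with PRMT1 siRNA, 0.69 ± 0.15 with p53 siRNA, 1.04 ± 0.15 with both siRNAs and 0.97 ± 0.15 with control siRNA, and 0.97 ± 0.08 with p53 siRNA when that library was left out. The table counts whole genes, so the smooth muscle and non-muscle isoforms of Cald1 and Tpm1 are summed.

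Smtn (chromosome 11, 3517523 to 3540613, minus strand), which encodes smoothelin, a filament-associated protein of contractile smooth muscle, went the other way in 2 treatments. With p53 siRNA Smtn was 128 and 152 CPM with TGF-beta, against 171 and 169 CPM without it. With control siRNA it was 127 and 121 CPM with TGF-beta, against 152 and 154 CPM without it. With PRMT1 siRNA the order was turned round, at 128 and 128 CPM with TGF-beta and 110.2 and 109.8 CPM without it, and with both siRNAs the libraries overlapped, at 119 and 115 CPM with TGF-beta and 114 and 131 CPM without it. Smtn fell by 0.28 ± 0.09 with p53 siRNA (adjusted p = 0.0217; by 0.41 ± 0.07 with 15 libraries) and by 0.30 ± 0.09 with control siRNA (adjusted p = 0.0169) on the log2 scale. Its change with PRMT1 siRNA was 0.22 ± 0.09 (adjusted p = 0.0815), and 0.21 ± 0.06 with 15 libraries (adjusted p = 0.00696). The fall with control siRNA was not called without any 1 of its 4 libraries (adjusted p = 0.0518 to 0.108), and the fall with p53 siRNA was not called when either untreated library or the first TGF-beta library was left out (0.071 to 0.1).

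**Figure D2:**
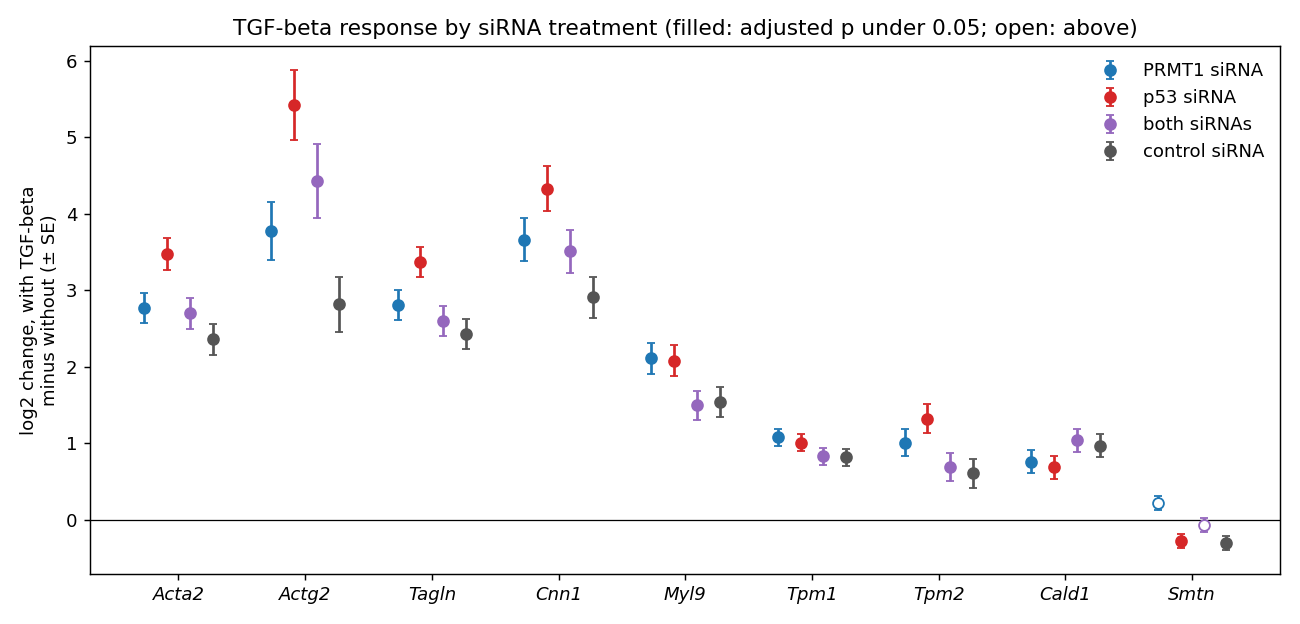
Log2 change with TGF-beta minus without it for the 9 members tested (points, bars ± SE from the edgeR fit of 16 libraries), by siRNA treatment; filled points have an adjusted p under 0.05. The changes run from 5.42 for Actg2 with p53 siRNA to -0.30 for Smtn with control siRNA.

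Levels can be compared between genes only per length of transcript. Per kilobase of the longest transcript, in cells with control siRNA, Acta2 stood at 983 CPM per kb with TGF-beta and 192 CPM per kb without it, and Tpm1 at 765 CPM per kb with it and 433 CPM per kb without it. Tagln was at 388 CPM per kb with TGF-beta and 72 CPM per kb without it, and Cald1 at 417 CPM per kb with it and 213 CPM per kb without it. On this scale Acta2 was above Tpm1 and Cald1 with TGF-beta, and below both without it. The other end of the scale held Cnn1, at 8.65 CPM per kb with TGF-beta and 1.14 CPM per kb without it, Actg2, at 5.43 CPM per kb with it and 0.77 CPM per kb without it, and Myh11, at 0.0328 CPM per kb with it and 0.00739 CPM per kb without it. The cytoplasmic actins Actb and Actg1 stayed above every member, at 2173 and 1582 CPM per kb with TGF-beta and 1233 and 763 CPM per kb without it.

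**Figure D3:**
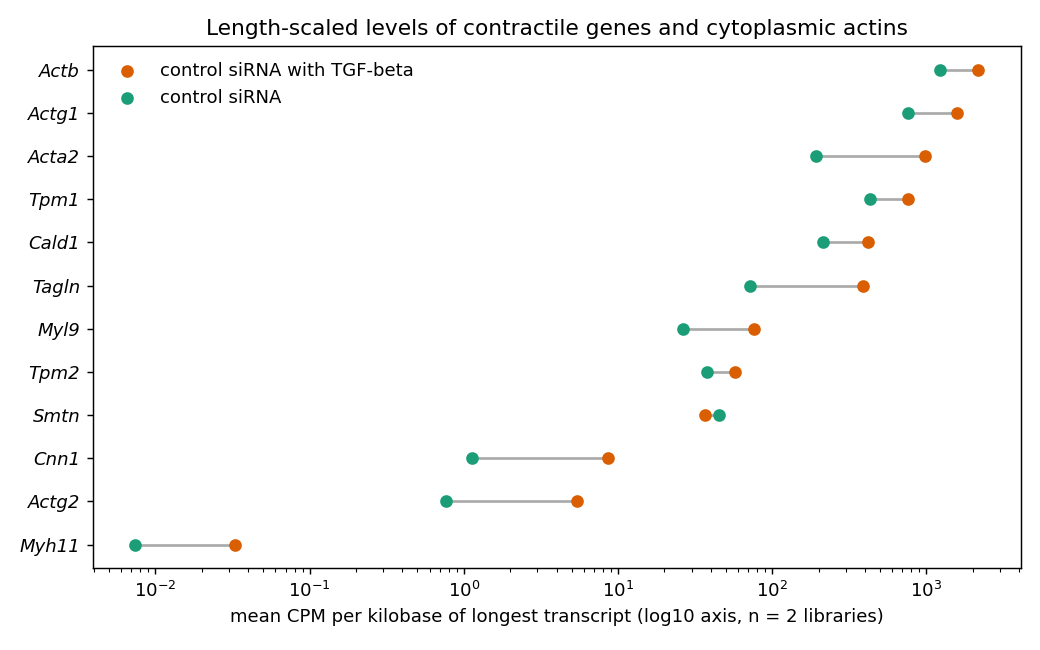
Mean CPM per kilobase of the longest transcript (log10 axis, 2 libraries per point) for the 10 members and the cytoplasmic actins Actb and Actg1, with TGF-beta in orange and without it in green, in cells with control siRNA. Members span from 0.00739 CPM per kb for Myh11 to 983 CPM per kb for Acta2.

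The order of the 8 groups differed by gene. For Acta2 the group means ran, from the top, p53 siRNA with TGF-beta (2593 CPM), PRMT1 siRNA with TGF-beta (2293 CPM), control siRNA with TGF-beta (2000.5 CPM) and both siRNAs with TGF-beta (1631 CPM), and the untreated groups followed. The libraries of the first pair overlapped, and those of the other neighbours among the treated groups did not. How many of all genes separate such groups was not counted. Among untreated groups Acta2 averaged 336 CPM with PRMT1 siRNA, 233 CPM with p53 siRNA, 251 CPM with both siRNAs and 391 CPM with control siRNA, and the p53 siRNA libraries overlapped those with both siRNAs. For Smtn the untreated p53 siRNA group was highest (170.1 CPM) and the untreated PRMT1 siRNA group lowest (110 CPM).

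Without TGF-beta, how many members were called for each siRNA depended on the library that stood apart, although it belongs to none of these groups. The fit of 16 libraries called 2 of the 9 for PRMT1 siRNA, 1 for p53 siRNA and 1 for both siRNAs, and the fit of 15 libraries called 3, 5 and 6, with 26.4%, 11.7% and 18.7% of all genes called. In the fit of 16 libraries, with PRMT1 siRNA Cald1 rose and Smtn fell, out of 9 tested, and 10.3% of all genes passed the test, 4.48% higher and 5.85% lower. Cald1 was 1495 and 1477 CPM with PRMT1 siRNA, against 959 and 1079 CPM with control siRNA, a log2 change of 0.54 ± 0.15 (adjusted p = 0.0447). Smtn was 110.2 and 109.8 CPM with PRMT1 siRNA, against 152 and 154 CPM with control siRNA, a log2 change of -0.48 ± 0.09 (adjusted p = 0.00631). In both genes the groups did not overlap, and the share of all genes that separate this way was not counted. Without any 1 of the 4 libraries the Cald1 call was lost (adjusted p = 0.106 to 0.27), and that of Smtn held only without replicate 1 of control siRNA (adjusted p = 0.0431, otherwise 0.0561 to 0.0685). With 15 libraries Tpm2 was called as well (0.26 ± 0.07, adjusted p = 0.015).

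With p53 siRNA alone Tagln fell, the single call among the 9 members, where 2.47% of all genes passed, 1.17% higher and 1.29% lower. Tagln was 53.7 and 73.3 CPM with p53 siRNA, against 122 and 107 CPM with control siRNA, a log2 change of -0.85 ± 0.19 (adjusted p = 0.0411). Acta2 had a log2 change of -0.74 ± 0.19 (adjusted p = 0.0696) and Actg2 of -2.39 ± 0.58 (adjusted p = 0.0569). Actg2 had 1 and 8 counts with p53 siRNA, against 18 and 26 with control siRNA. For Tagln, Acta2 and Actg2 alike, both p53 siRNA libraries lay below both control libraries. Acta2 and Actg2 were not called in the fit of 16 libraries, and the share of all genes that separate this way was not counted. The fit of 15 libraries called 5 members lower and 0 higher: Tagln (-0.87 ± 0.11, adjusted p = 0.000363), Acta2 (-0.76 ± 0.12, adjusted p = 0.0017), Actg2 (-2.40 ± 0.51, adjusted p = 0.00777), Cnn1 (-1.11 ± 0.32, adjusted p = 0.0413) and Tpm2 (-0.41 ± 0.07, adjusted p = 0.00259). DESeq2 on all 16 libraries called 4, which were Tagln, Acta2, Actg2 and Cnn1, and the share of all genes that it called is not given here. Without any 1 of the 4 libraries of this contrast no member was called, and the adjusted p of Tagln was 0.0621 to 0.397.

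With both siRNAs and no TGF-beta Actg2 fell, at 4 and 5 counts, against 18 and 26 with control siRNA (-2.57 ± 0.58, adjusted p = 0.0303), and 4.45% of all genes passed, 2.31% higher and 2.14% lower. The call was lost without any 1 of the 4 libraries (adjusted p = 0.0762 to 0.276). With 15 libraries Acta2 (-0.65 ± 0.12), Tagln (-0.45 ± 0.11) and Smtn (-0.33 ± 0.06) were also lower, and Myl9 (0.45 ± 0.10) and Tpm2 (0.26 ± 0.07) were higher. Set against PRMT1 siRNA alone, the addition of p53 siRNA gave 0 calls among the members by edgeR and 0 by DESeq2, with 2 at an unadjusted p under 0.05, and 0.865% of all genes passed, 0.568% higher and 0.297% lower. With 15 libraries Acta2 (-0.41 ± 0.12) and Cald1 (-0.32 ± 0.07) were lower and Myl9 (0.41 ± 0.10) was higher in that comparison, with 21.6% of all genes called.

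In cells given TGF-beta, PRMT1 siRNA raised Myl9 and Tpm2, where 15.7% of all genes passed, 9.13% higher and 6.53% lower. Myl9 was 131 and 134 CPM with PRMT1 siRNA, against 89.8 and 82.5 CPM with control siRNA (0.62 ± 0.19, adjusted p = 0.0467). Tpm2 was 199.9 and 202 CPM with PRMT1 siRNA, against 131 and 120.4 CPM with control siRNA (0.68 ± 0.18, adjusted p = 0.0303). Neither gene overlapped between the groups, but the share of all genes that separate this way was not counted. Both calls were lost without any 1 of the 4 libraries. With 15 libraries Cald1 (0.33 ± 0.07) and Tpm1 (0.22 ± 0.08) rose too, with 41.4% of all genes called. The p53 siRNA groups with TGF-beta gave 0 calls among members against control siRNA by edgeR, 1 by DESeq2 (Myl9) and 1 at an unadjusted p under 0.05, with 5.21% of all genes called, 2.82% higher and 2.39% lower. That comparison holds the library that stood apart: 0 members were called without it, with 4.1% of all genes called. Calls among members and over all genes both rose when its partner, replicate 1, was left out instead. That refit is therefore not a result about the members. The members' median change was 0.21 with 16 libraries and -0.02 with 15.

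With both siRNAs and TGF-beta, 0 members were called against control siRNA by edgeR, 1 by DESeq2 (Actg2) and 1 at an unadjusted p under 0.05, while 13.1% of all genes passed, 7.71% higher and 5.35% lower. Actg2 was 3.61 and 3.83 CPM with both siRNAs, against 7.74 and 6.73 CPM with control siRNA, and the fit of 15 libraries called it lower (-0.95 ± 0.21, adjusted p = 0.0042). In that fit Myl9 (0.41 ± 0.09), Tpm2 (0.35 ± 0.07) and Cald1 (0.28 ± 0.07) were higher, and 29.9% of all genes were called. Against PRMT1 siRNA with TGF-beta, adding p53 siRNA gave 0 calls by edgeR and by DESeq2, with 4 members at an unadjusted p under 0.05 and 0.452% of all genes called, 0.219% higher and 0.232% lower. All 9 members had a lower fitted level with both siRNAs there, with a median log2 change of -0.35, against 0 over all genes. Acta2 stood at 1666 and 1595 CPM with both siRNAs, against 2303 and 2283 CPM with PRMT1 siRNA, and Tagln at 536 and 487 CPM with both siRNAs, against 742 and 748 CPM with PRMT1 siRNA. The 15-library fit called 5 of the 9 lower: Acta2 (-0.48 ± 0.12), Actg2 (-0.93 ± 0.21), Tagln (-0.53 ± 0.11), Tpm1 (-0.34 ± 0.08) and Tpm2 (-0.32 ± 0.07), with 12.2% of all genes called.

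**Figure D4:**
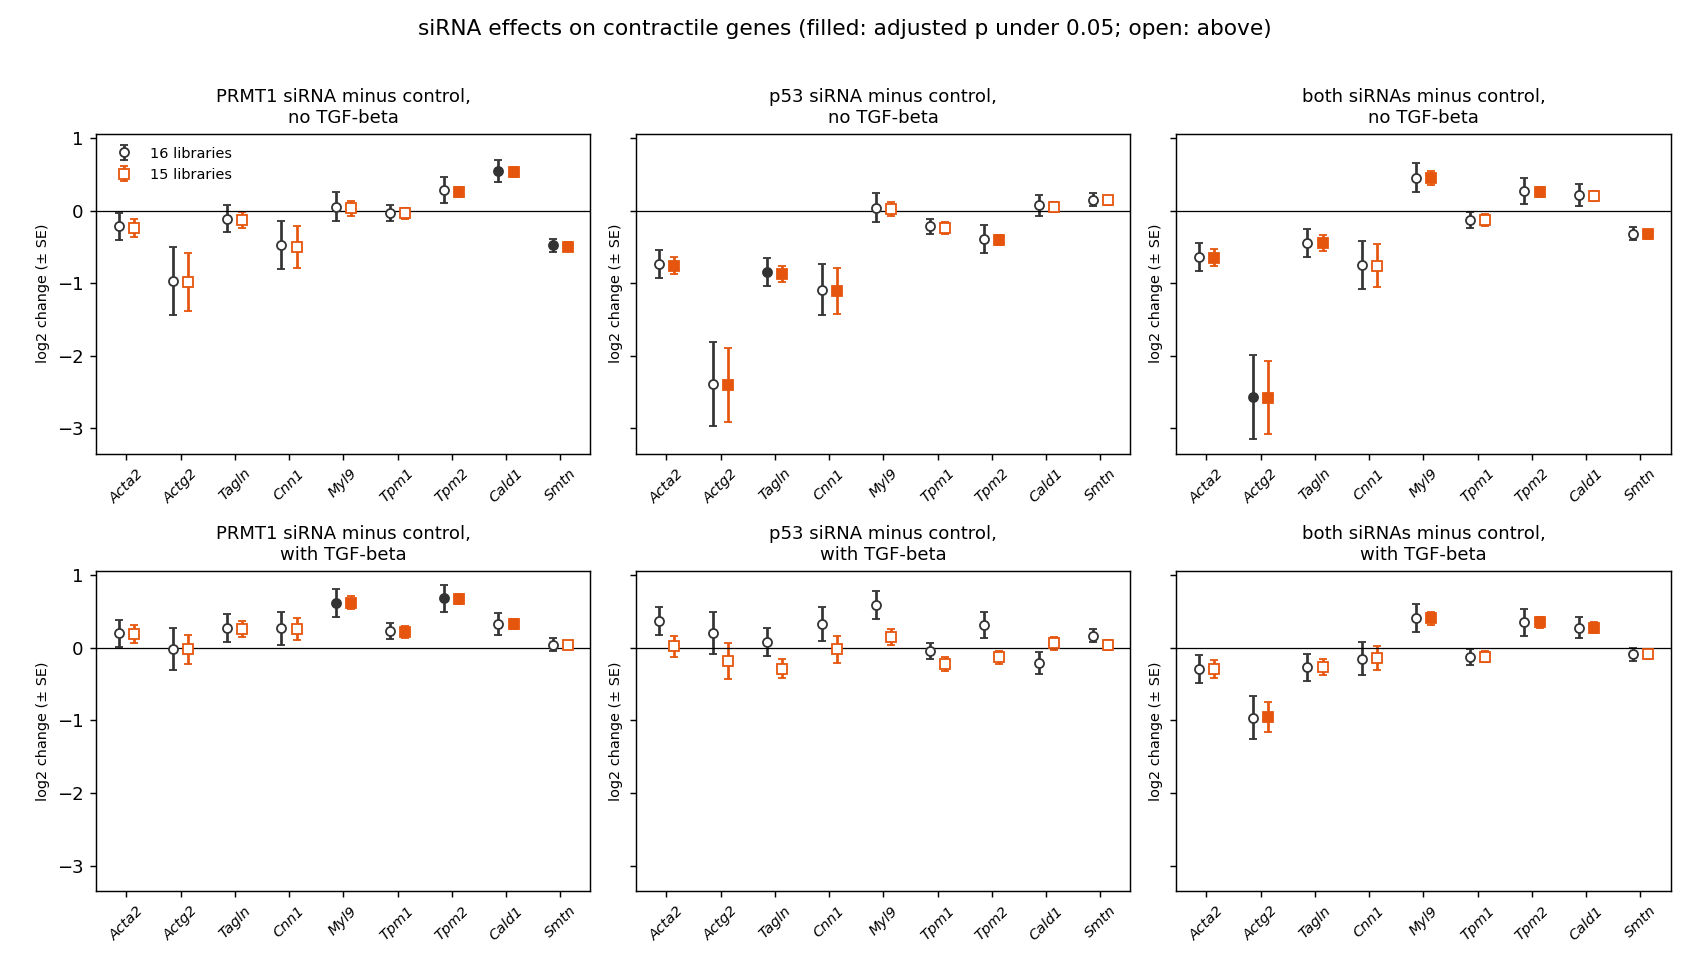
Log2 change of the 9 members tested for each siRNA treatment minus control siRNA (± SE), without TGF-beta in the upper row and with it in the lower row, from fits of 16 libraries (circles) and 15 libraries (squares); filled points have an adjusted p under 0.05. Actg2 lies lowest in the upper panels for p53 siRNA and for both siRNAs, at -2.39 and -2.57 with 16 libraries.

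Whether an siRNA changed the TGF-beta response itself was tested by the difference between responses. For PRMT1 siRNA, 0 of the 9 members were called (1 at an unadjusted p under 0.05, 1 by DESeq2), with 2.08% of all genes called, 1.3% higher and 0.781% lower. That 1 was Smtn, whose response was higher by 0.52 ± 0.12 with PRMT1 siRNA than with control siRNA (adjusted p = 0.0583). With 15 libraries Smtn (0.53 ± 0.08, adjusted p = 0.00069), Myl9 (0.59 ± 0.14, adjusted p = 0.00633) and Tpm2 (0.41 ± 0.10, adjusted p = 0.00728) were called, with 30.7% of all genes. For p53 siRNA, 0 members were called by edgeR and 4 by DESeq2 (Acta2, Actg2, Cnn1 and Tagln), and 5 had an unadjusted p under 0.05. Over all genes edgeR called 1.02%, 0.452% higher and 0.568% lower, and the share that DESeq2 called is not given here. The p53 siRNA responses of Acta2, Actg2, Cnn1 and Tagln were the steepest of the 4 treatments, and their untreated p53 siRNA libraries were below the untreated control libraries. Calls among members and over all genes alike depended on whether the library that stood apart or its partner was left out. The members' median difference in response was 0.72 with 16 libraries and 0.27 with 15.

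The other genes of the contractile programme were taken from a list of 44 further contractile and actin filament genes, 38 of them tested. TGF-beta raised 24 and lowered 4 with PRMT1 siRNA, raised 23 and lowered 5 with p53 siRNA, raised 24 and lowered 4 with both siRNAs, and raised 23 and lowered 5 with control siRNA. Median log2 changes were 0.79, 0.75, 0.54 and 0.60 in that order. Over all genes tested 16.3%, 23.3%, 15% and 17.8% rose and 16.2%, 22%, 16.3% and 20.6% fell, in the same order. With 15 libraries TGF-beta raised 25 and lowered 8 with PRMT1 siRNA, raised 25 and lowered 6 with p53 siRNA, raised 27 and lowered 6 with both siRNAs, and raised 28 and lowered 6 with control siRNA. In that fit 50.6% of all genes were called either way with PRMT1 siRNA, 47.4% with both siRNAs and 52.2% with control siRNA. The list holds many widely used actin genes, so its counts describe the filament system as much as smooth muscle. Among those that rose with control siRNA were Csrp2 (2.84 ± 0.21), a LIM protein of smooth muscle that acts with serum response factor and GATA factors, Mcam (1.89 ± 0.11), an adhesion receptor of vessel walls, Flna (1.37 ± 0.18), an actin cross-linker, and Myh9 (1.41 ± 0.12), a non-muscle myosin heavy chain. The cytoplasmic actins Actb (0.82 ± 0.14) and Actg1 (1.05 ± 0.13) rose as well.

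Among the list genes that fell was Mylk, which encodes the kinase that phosphorylates the light chain Myl9. Mylk averaged 39.7 ± 3.98 CPM with TGF-beta and 144 ± 26.1 CPM without it in control cells (-1.86 ± 0.26, adjusted p = 0.000125). It also fell with PRMT1 siRNA alone, to 59.6 ± 2.31 CPM (-1.27 ± 0.25, adjusted p = 0.00866), a call lost in 3 of its 12 refits. With PRMT1 siRNA alone 1 of the 38 list genes tested was called higher and 2 lower, where 10.3% of all genes passed. With 15 libraries 10 were called higher and 3 lower, where 26.4% of all genes were called. Cav1, the coat protein of membrane caveolae, fell with TGF-beta (-1.45 ± 0.08). Desmin, Des, an intermediate filament protein of muscle, stayed under 1 CPM in every library.

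Of 39 regulators of the smooth muscle programme, 37 were in the table and 33 were tested. TGF-beta raised 12 and lowered 8 with PRMT1 siRNA, raised 13 and lowered 11 with p53 siRNA, raised 13 and lowered 7 with both siRNAs, and raised 14 and lowered 6 with control siRNA. With 15 libraries it raised 13 and lowered 12 with PRMT1 siRNA, raised 17 and lowered 10 with p53 siRNA, raised 18 and lowered 8 with both siRNAs, and raised 17 and lowered 8 with control siRNA. The regulators' median log2 changes were 0.15 with PRMT1 siRNA, 0.09 with p53 siRNA, 0.25 with both siRNAs and 0.2 with control siRNA with 16 libraries. In that fit 16.3%, 23.3%, 15% and 17.8% of all genes rose, in the same order. The shares that fell were 16.2%, 22%, 16.3% and 20.6%. With 15 libraries 50.6% of all genes were called either way with PRMT1 siRNA, 47.4% with both siRNAs and 52.2% with control siRNA. The serum response factor gene Srf rose in all 4 treatments. The log2 changes of Srf were 0.87 ± 0.10 with PRMT1 siRNA, 0.79 ± 0.10 with p53 siRNA, 0.65 ± 0.10 with both siRNAs and 0.69 ± 0.10 with control siRNA. Its coactivator gene Myocd was at or near 0, with at most 6 counts summed over a group. Mkl1, a myocardin-related factor, had 84.5 ± 6.22 CPM with TGF-beta and 68.9 ± 0.165 CPM without it in control cells. Tgfb1i1, a TGF-beta-induced focal adhesion protein, rose (1.36 ± 0.13), as did the Notch ligand Jag1 (3.34 ± 0.19). Gata6 (-2.62 ± 0.06), a transcription factor of vascular smooth muscle, and Crip2 (-3.92 ± 0.20), which encodes a LIM domain protein, fell.

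By the test of the difference, the responses of 5 of the 33 regulators differed with PRMT1 siRNA, 3 higher and 2 lower, where 2.08% of all genes were called. With 15 libraries 7 were higher and 9 lower, where 30.7% of all genes were called. Klf4, a repressor of smooth muscle genes, averaged 30.0 ± 1.08 CPM with PRMT1 siRNA and TGF-beta and 27.1 ± 1.71 CPM with PRMT1 siRNA alone. In control cells it averaged 53.3 ± 3.19 CPM with TGF-beta and 27.3 ± 1.32 CPM without it, and the difference between the log2 responses was -0.82 ± 0.13 (adjusted p = 0.0086). For Gata6 the difference was 0.75 ± 0.09 (adjusted p = 0.00122). The other 3 were Crip2 (1.74 ± 0.29, adjusted p = 0.0137), Tcf21 (0.75 ± 0.16, adjusted p = 0.034), a transcription factor of the epicardium, and Fosl1 (-0.89 ± 0.18, adjusted p = 0.0288), a subunit of the AP-1 factors. Of 16 refits the Gata6 call was lost in 0, that of Klf4 in 3, Crip2 in 5, Fosl1 in 8 and Tcf21 in 9.

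**Figure D5:**
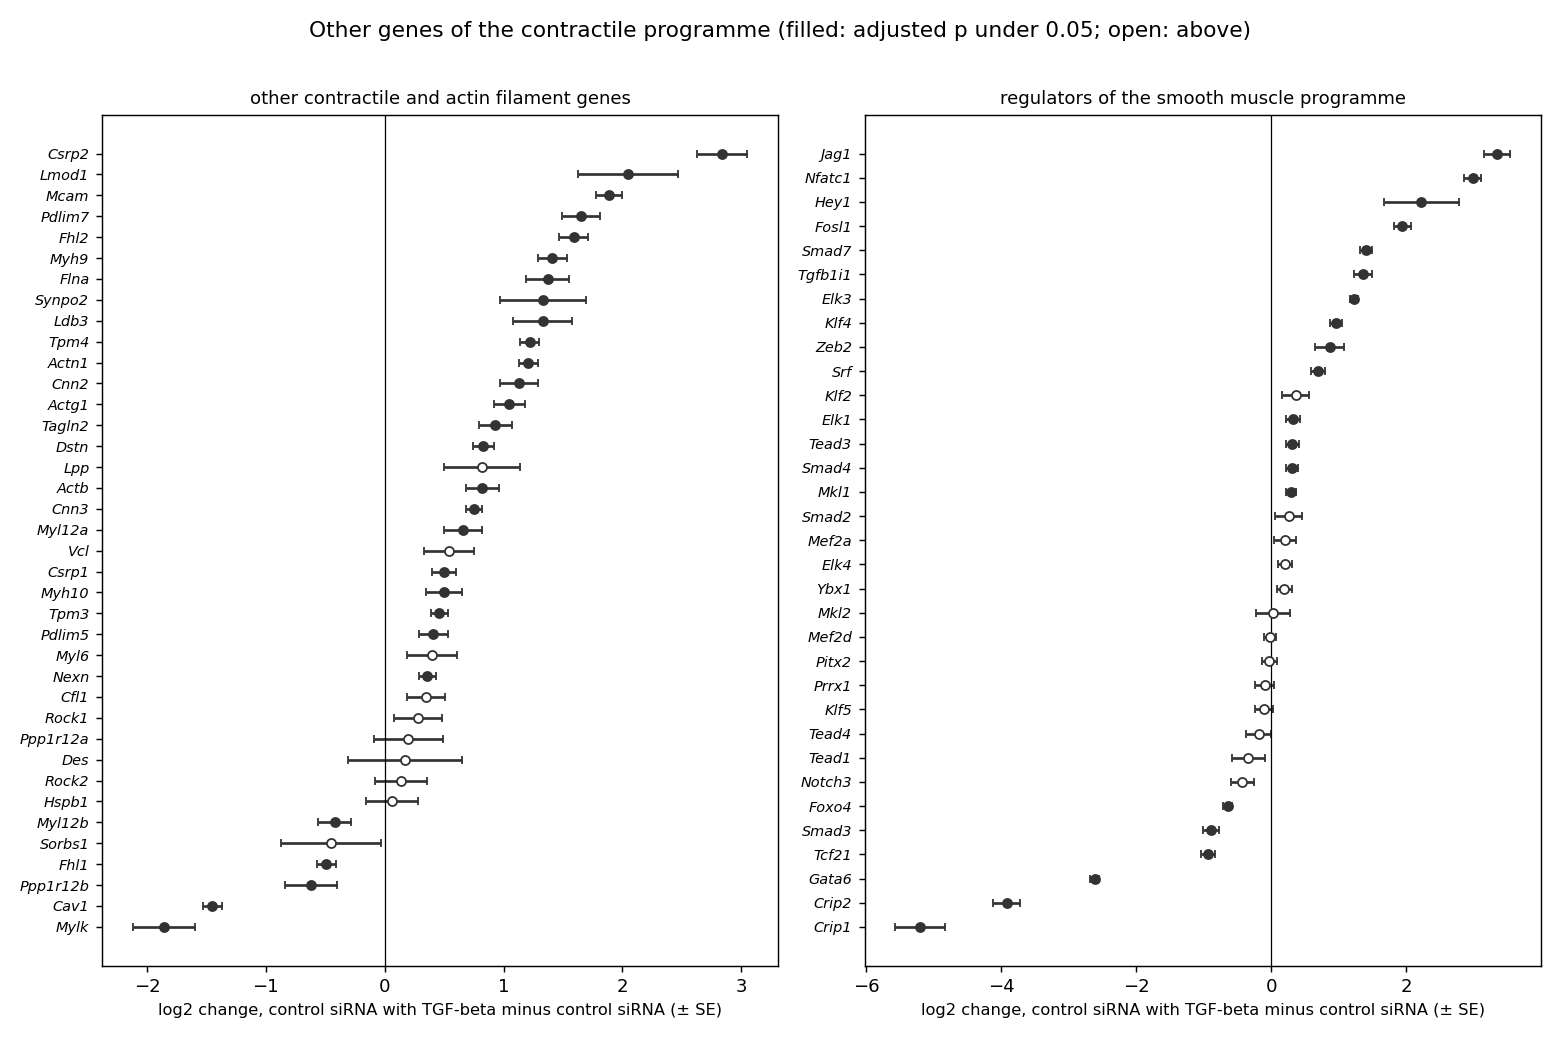
Log2 change with TGF-beta minus without it in cells with control siRNA (± SE, edgeR) for the 38 other contractile and actin filament genes tested (left) and the 33 regulators tested (right); filled points have an adjusted p under 0.05. The left panel runs from 2.84 for Csrp2 to -1.86 for Mylk, and the right one from 3.34 for Jag1 to the LIM genes Crip2 and Crip1.

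The 5 other genes whose log2 CPM followed the mean standardised profile of the members most closely over the 16 libraries, out of 10736 genes that averaged 5 CPM or more, were Fhl2 (r = 0.995), Tgfb1i1 (0.994), Pdlim7 (0.992), Klhl22 (0.990) and Creb3l1 (0.989). Fhl2 ran from 56.7 to 82.3 CPM in the TGF-beta libraries, against 17.3 to 22.0 CPM in untreated ones. Creb3l1 ran from 249 to 314 CPM with TGF-beta, against 150.4 to 185 CPM without it. The libraries fall into those with TGF-beta and those without, and the r values rest on that split.

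Markers of other cell types were read beside these results. The 12 epicardial and mesothelial markers summed to 440.3 to 505 CPM in the TGF-beta libraries, against 1570 to 2174 CPM in untreated ones. With TGF-beta 7 of the 12 fell and 0 rose with PRMT1 siRNA, 9 fell and 1 rose with p53 siRNA, 10 fell and 1 rose with both siRNAs, and 9 fell and 1 rose with control siRNA. Over all genes tested 16.2% fell with PRMT1 siRNA, 22% with p53 siRNA, 16.3% with both siRNAs and 20.6% with control siRNA. The shares that rose were 16.3%, 23.3%, 15% and 17.8% in the same order. The markers that rose were Tbx18 with both siRNAs (0.47 ± 0.10) and Krt8 with p53 siRNA (1.03 ± 0.27) and control siRNA (0.90 ± 0.29). Among those that fell, Upk3b averaged 24.3 ± 0.734 CPM with TGF-beta and 574 ± 17.7 CPM without it in control cells. The 6 pericyte markers summed to 180.1 to 276 CPM with TGF-beta, against 76.6 to 103 CPM without it, but they did not move together, and Pdgfrb held most of the sum. In control cells Pdgfrb averaged 167 ± 8.65 CPM with TGF-beta and 59.3 ± 3.58 CPM without it, and Rgs5 7.76 ± 2.50 CPM with it and 0.441 ± 0.0605 CPM without it, and both rose. Kcnj8 and Abcc9 fell there, Kcnj8 to 0 counts in both TGF-beta libraries, against 191 counts summed over the untreated pair. Notch3 was not called (-0.43 ± 0.17, adjusted p = 0.067) and Cspg4 was too low to test. The 7 endothelial markers summed to 7.07 to 9.57 CPM with TGF-beta, against 4.25 to 9.23 CPM without it, with Tie1 at 0 in all libraries. Of 9 cardiomyocyte markers 8 stayed under 1 CPM everywhere, and the exception, Tnnt2, averaged 96.7 ± 11.4 CPM with TGF-beta and 19.0 ± 1.16 CPM without it in control cells. Skeletal muscle markers Myod1, Myog and Ckm were at 0. Of the 8 smooth muscle markers, Myh11 and Des stayed under 1 CPM in every library. Acta2, Tagln, Cnn1, Myh11 and Smtn on that list are members, so its counts in part repeat theirs. Among the rest, Lmod1 rose in all 4 treatments (2.05 ± 0.42 with control siRNA) and Des was called in none. Synpo2 rose with PRMT1 siRNA (1.56 ± 0.38) and control siRNA (1.33 ± 0.36), and was not called with p53 siRNA or both siRNAs. Of the 7 tested, TGF-beta raised 5 and lowered 0 with PRMT1 siRNA, and raised 4 and lowered 1 with p53 siRNA. It raised 4 and lowered 0 with both siRNAs, and raised 5 and lowered 1 with control siRNA. The members carry the label of smooth muscle contractile genes because they were picked by symbol, and these marker counts do not test it. The part that a shift between cell types plays in these levels was not tested.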

How the data were processed

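Poly(A) RNA of 16 MEC1 libraries was sequenced, and the authors deposited 1 table of expected counts per gene, for which the submitters' processing notes name TopHat2, Partek and mm10 without versions. Of the nonzero entries 60.0% were whole to within 0.01, and all were rounded before testing. Values were not scaled for depth or length, and the annotation, strand and counting options are not given in the sources used here. Reads of near-identical actin or myosin stretches could be split between genes: of the 50-base stretches of the longest transcripts, 7 of 1986 in Acta2 and 26 of 6500 in Myh11 occur in other genes, and 0 in the other members.

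Sample titles gave the groups. All 16 libraries entered a single edgeR 4.0.16 model (R 4.3.3) with a mean for each group, TMM scaling and the filterByExpr filter, and 14 contrasts were tested by its quasi-likelihood F test. Calls were made at 0.05 after Benjamini-Hochberg adjustment over the 15494 genes tested. Where no tool is named beside an adjusted p it is edgeR's, and DESeq2 1.42.0 served as an alternative. Shares of all genes called are edgeR's too, and no DESeq2 share stands beside the DESeq2 counts of members. The fit was tested on simulated counts. Longest transcripts and gene positions came from GENCODE vM21, where 42003 genes matched by symbol and 809 by synonym, and promoters from RefSeq. The authors' annotation may differ. Counts of few reads cover counting error only.

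The members and lists were chosen with earlier results of these data known. The genes named are the members, the siRNA targets, genes of the lists and markers, and the 5 genes most like the members. Alternatives were RLE factors, no low-count filter, DESeq2, a fit of the compared groups alone, the replicate number as a block, leaving out each library in turn, 15 libraries, and offsets that remove each library's trend with transcript length.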

Additional observations from a re-analysis of the deposited data

How the results depend on the processing

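Of the 34 called TGF-beta responses of the members, 389 of 408 refits kept the call, 19 lost it and 0 changed direction. Those that lost it were Smtn and Tpm2, and Cald1 with p53 siRNA. Of the 6 called siRNA effects, 44 of 72 refits kept the call, 28 lost it and 0 changed direction. A group reduced to a lone library was taken to vary as the other groups do. Without 1 library, 7 members were called in the control siRNA response, 8 with PRMT1 siRNA, 8 to 9 with p53 siRNA and 7 to 8 with both siRNAs. In the same refits almost no member was called in the other comparisons. The exceptions were p53 siRNA with TGF-beta and the p53 siRNA difference in response, where the calls over all genes moved as well. In every siRNA comparison the calls over all genes moved by over 1.5 times under some alternatives. Those of the TGF-beta responses did so in 7 of 12 alternatives with PRMT1 siRNA, 3 with both siRNAs, 1 with p53 siRNA and 0 with control siRNA. The following counts of called members also moved by over 1.5 times, in each case with the cause not tested. The calls over all genes under the same alternative are mostly not given beside them. These counts therefore describe the processing and are not results about the members. For PRMT1 siRNA without TGF-beta (2 called), RLE factors gave 1. For PRMT1 siRNA with TGF-beta (2 called), RLE factors gave 1, 15 libraries 4 and only the groups of the contrast 6. Over all genes that comparison had 2427 calls with 16 libraries, 6659 with 15 libraries and 7650 with only its groups. For p53 siRNA without TGF-beta (1 called), DESeq2 and no filter each gave 4, 15 libraries 5, only its groups 3, and length offsets 3 with 16 and 6 with 15 libraries. For p53 siRNA with TGF-beta (0 called), no filter gave 2 and DESeq2 1. For both siRNAs without TGF-beta (1 called), RLE factors gave 2, DESeq2 and only its groups 3, no filter 5, 15 libraries 6, and length offsets 5 and 7. For both siRNAs with TGF-beta (0 called), RLE factors and DESeq2 gave 1, no filter 3, 15 libraries 4, only its groups 6, and length offsets 3 and 6. For p53 siRNA added to PRMT1 siRNA (0 called), the counts without TGF-beta were 3 with no filter, 3 with 15 libraries, 4 with only its groups, and 1 and 5 with length offsets. With TGF-beta they were 3 with no filter, 5 with 15 libraries, 6 with only its groups and 5 with length offsets and 15 libraries. For the PRMT1 siRNA difference in response (0 called), DESeq2 gave 1, no filter 3, 15 libraries 3, only its groups 5, and length offsets 1 and 2. For that of p53 siRNA (0 called), DESeq2 gave 4, no filter 6, and length offsets 1 and 1. The replicate numbers did not pair the libraries: differences between replicates correlated at -0.401 to 0.246 over 28 pairs of groups, 6 of them over 0.1. With a replicate block 1 member was called for PRMT1 siRNA without TGF-beta, 1 with TGF-beta and 0 for p53 siRNA without TGF-beta, and no other count of members moved by over 1.5 times. Among the 38 other contractile genes, 15 libraries moved the count that TGF-beta lowered with PRMT1 siRNA to 8, against 4 with 16. Their counts in siRNA comparisons moved too. For PRMT1 siRNA with TGF-beta, 2 higher and 1 lower became 8 and 8, where 41.4% of all genes were called. For the PRMT1 siRNA difference in response, 0 became 6 higher and 10 lower, where 30.7% of all genes were called. Over all genes the calls ranged from 397 to 5052 for PRMT1 siRNA without TGF-beta (1601 in the fit of 16 libraries) and from 55 to 2675 for p53 siRNA (382). Calls on the other contractile genes and regulators were kept in 2781 of 3140 refits and lost in 359. The 2 libraries per group, and the 1 that stands apart, limit the precision of every siRNA effect.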
